A study of Danio rerio x Danio aesculapii and Danio rerio x Danio albolineatus and Danio rerio x Danio kyathit with 48 samples.

Results

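The genes bco1, bco2l, plin6 and bscl2l, tied to carotenoids and lipid droplets, were followed through the pigment cells of hybrid Danio fish. The members were chosen by name, with earlier results of these data known, and all 4 were found among the 19629 genes of the deposited tables. Each hybrid had a female D. rerio (zebrafish) as mother, and is named here after its father's species: aesculapii, albolineatus, kyathit or nigrofasciatus. All fish were adults from lines with membrane-bound fluorescent reporters: aox5:mem-EGFP for xanthophores, tyrp1b:mem-mCherry for melanophores and pnp4a:mem-mCherry for iridophores. Dissociated skin was sorted on reporter signal into xanthophore-enriched, melanophore-enriched and iridophore-enriched libraries, and unenriched skin was the control. With 3 replicates, numbered 3, 4 and 5, in each of 16 groups there were 48 libraries, 12 of each kind. Each reporter follows the promoter of a gene that is itself measured, and the sort enriches for a cell type without isolating it. How many fish went into a library is not given in the sources used here, so the p-values cover the spread among these libraries alone, part of which may be technical.

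Xanthophores are the yellow to orange pigment cells of fish skin. Their colour comes from pteridines and from carotenoids, which are taken up from the diet and held in lipid droplets. Enzymes of the carotenoid oxygenase family split carotenoids: bco1 cleaves beta-carotene at its centre to give retinal, and the bco2 branch cleaves carotenoids off centre. Perilipins coat lipid droplets, and plin6 is a perilipin of fish known from the droplets of zebrafish xanthophores. Seipin, the product of BSCL2 in humans, sits where droplets bud from the endoplasmic reticulum, and bscl2l is named as a seipin-like gene.

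Judged from the values themselves, the tables hold allele read counts that were scaled and rounded, so the reads behind them are not known. Depth was therefore estimated in molecules, from how far the allele shares of replicate libraries lay apart. Libraries held an estimated 35139 to 911556 molecules, with a median of 89483 in xanthophore-enriched, 89357.5 in melanophore-enriched, 179732.5 in iridophore-enriched and 497207 in unenriched libraries. These estimates absorb any real spread between replicates. The sorts were checked on 18 xanthophore markers, which made up 0.218 to 2.07% of the summed value in xanthophore-enriched libraries, against 0.0455 to 0.304% in unenriched skin. aox5 itself ran from 932 to 6184 in xanthophore-enriched libraries, against 118 to 1160 in unenriched skin. In melanophore-enriched libraries aox5 ran from 28 to 4676, with a median of 827.5, against 1883 in xanthophore-enriched libraries and 514 in skin. The lowest marker share, that of the xanthophore-enriched library aesculapii 3, lay inside the range of unenriched skin, and its 18 keratinocyte markers, at 6.77%, were the highest of that kind. Melanophore-enriched libraries also held xanthophore markers, at 0.18 to 0.818%, and iridophore-enriched libraries at 0.116 to 0.394%. One of these markers, tfec, is also listed for iridophores, with a mean of 5598.7 in iridophore-enriched libraries and 272.8 in unenriched skin. There aox5 and aox6 had means of 199.2 and 121.2, against 589.8 and 461.2 in skin. Of the 14 xanthophore markers tested between these kinds, 6 rose and 4 fell. The unenriched libraries kyathit 5 and nigrofasciatus 3 had 0.222 and 0.223% of melanophore markers, against a median of 0.0226% in unenriched skin.

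The first question was in which kind of library the members were high. bco1, plin6 and bscl2l rose in xanthophore-enriched and in melanophore-enriched libraries, both against unenriched skin. Levels of bco1 and bscl2l fell in iridophore-enriched libraries. bco2l had a median of 2.9, 4.8 and 6.3 molecules in xanthophore-, melanophore- and iridophore-enriched libraries, against 24.8 in unenriched skin. Its level could not be tested in xanthophore-enriched libraries.

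For bco1, the summed value of both alleles ran from 657 to 10526 in xanthophore-enriched libraries (median 3379), and from 95 to 970 in unenriched skin (median 380.5). It was 26 to 3553 in melanophore-enriched libraries (median 957) and 35 to 440 in iridophore-enriched libraries (median 153.5). In 12 of 12 xanthophore-enriched libraries, bco1 stood above the mean of the unenriched libraries of its own hybrid. In 3 of 4 hybrids its lowest xanthophore-enriched library was above the highest unenriched one, and the exception was the aesculapii hybrid, through library aesculapii 3 at 657.

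For plin6, values of 700 to 10362 in xanthophore-enriched libraries (median 4999) stood against 127 to 1814 in unenriched skin (median 555). Melanophore-enriched libraries held 473 to 3587 (median 1437) and iridophore-enriched libraries 223 to 870 (median 502). All 12 xanthophore-enriched libraries exceeded the unenriched mean of their hybrid, with no overlap in 2 of 4 hybrids.

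For bscl2l, the range was 1760 to 25622 in xanthophore-enriched libraries (median 7399.5), against 257 to 2742 in unenriched skin (median 865). It was 407 to 5342 in melanophore-enriched libraries (median 2787.5) and 65 to 1019 in iridophore-enriched libraries (median 286). The 12 xanthophore-enriched libraries again all lay above the unenriched mean of their hybrid, without overlap in 3 of 4 hybrids.

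For bco2l, the range was 39 to 854 in xanthophore-enriched libraries (median 208.5), against 174 to 684 in unenriched skin (median 348.5). These values correspond to a median of 2.9 molecules per xanthophore-enriched library and 24.8 per unenriched one. The range of unenriched skin lay inside that of xanthophore-enriched libraries, and 9 of 12 xanthophore-enriched libraries lay below the unenriched mean of their hybrid. In 1 of 4 hybrids, albolineatus, the xanthophore-enriched values (115, 128 and 39) all lay below the unenriched ones (376, 371 and 326).

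**Figure D1:**
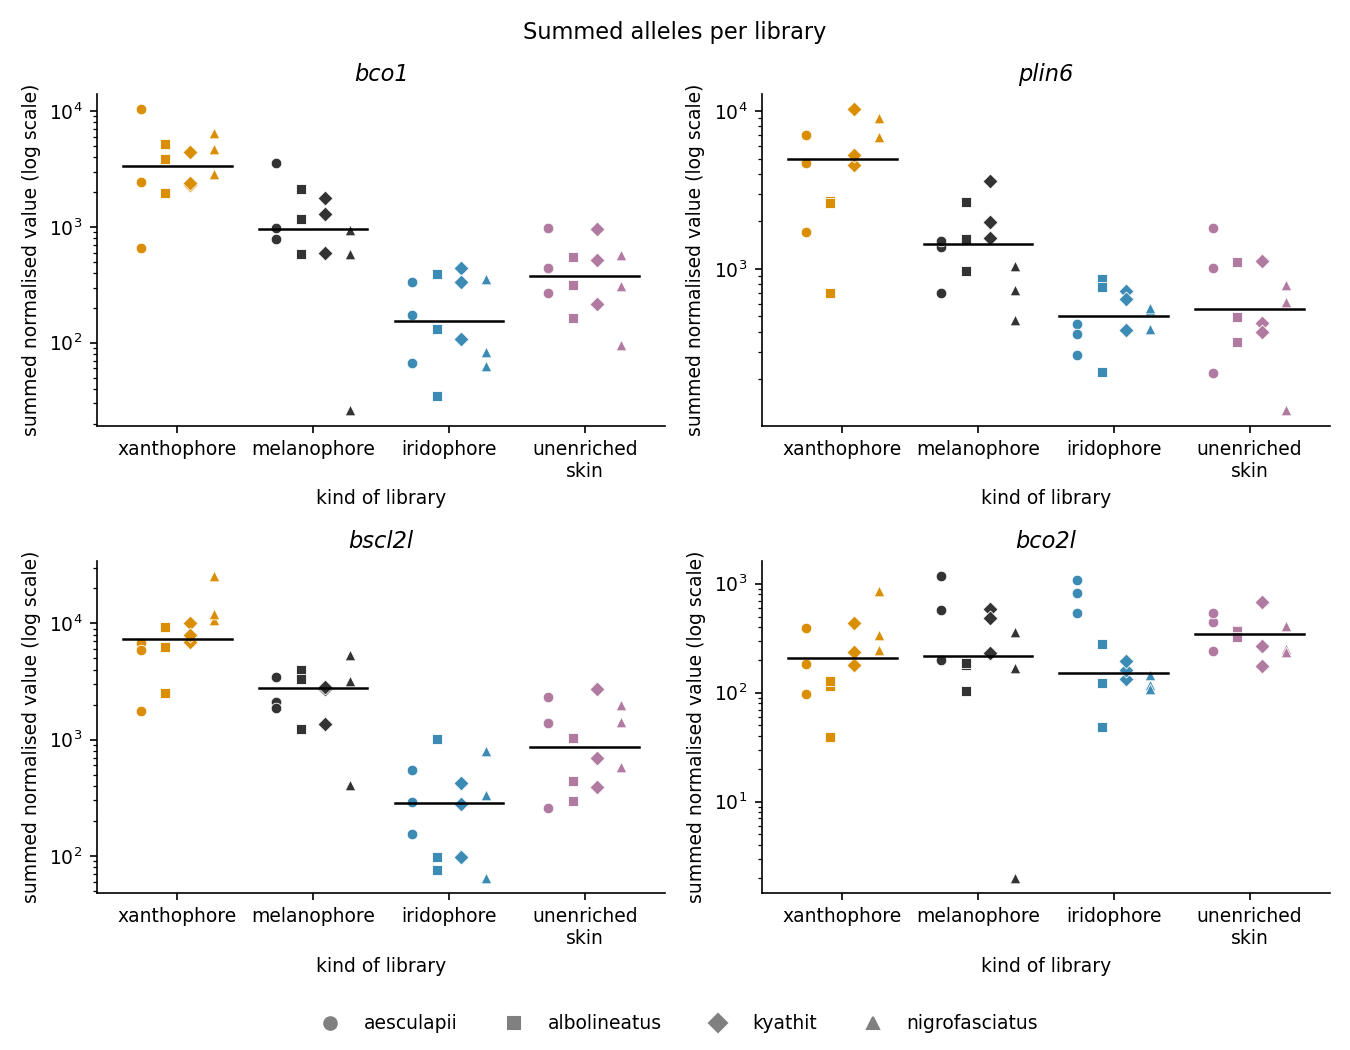
Summed normalised value of each member in each of the 48 libraries, on a log axis, by kind of library; symbols give the hybrid and lines the median of 12 libraries. bco1, plin6 and bscl2l are high in xanthophore-enriched libraries, with medians of 3379, 4999 and 7399.5, while bco2l is not.

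Differences were tested with limma on log2 of the value plus 20, as the mean of the 4 within-hybrid differences. Genes needed a mean of 5 or more molecules. This was the mean value over both kinds of library, divided by the sorted kind's median value per molecule. Between sorted kinds the larger median was used. A change of 1 on this scale is a doubling, except that low values are understated. In xanthophore-enriched over unenriched libraries, bco1 rose by 2.92 ± 0.39 (SE; adjusted p = 2.21e-06), plin6 by 2.85 ± 0.33 (adjusted p = 7.97e-08) and bscl2l by 3.03 ± 0.42 (adjusted p = 3.77e-06). Thus 3 of 3 members tested were called higher, where 8.47% of the 3316 genes tested were, and 5.43% were called lower. The members were chosen with earlier results of these data known, so this count is a description and not a test. Size factors recomputed over the 48 sums of both alleles moved the median gene by 0.141 in this comparison, so that 78.7% of calls were higher in place of 61%, and the 3 calls held. Without library aesculapii 3 the 3 calls also held. Of the markers tested in this comparison, 12 of 13 for xanthophores and 3 of 5 for melanophores rose, while 5 of 10 for fibroblasts and scales and 3 of 3 for erythrocytes fell, and their part in the members' rise was not tested. In bulk libraries, fewer cells of a type and less RNA per cell cannot be told apart.

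Within each replicate number, which the labels also give as the batch, the mean difference was 2.86, 2.64 and 3.7 for bco1 in numbers 3, 4 and 5. It was 2.02, 3.05 and 3.48 for plin6, and 2.9, 2.87 and 3.35 for bscl2l. The direction was the same in 4 of 4 hybrids for each number, apart from plin6 in number 3, where 2 of 4 hybrids were higher.

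In melanophore-enriched over unenriched libraries, bco1 rose by 1.11 ± 0.4 (adjusted p = 0.0298), plin6 by 1.16 ± 0.32 (adjusted p = 0.00452) and bscl2l by 1.36 ± 0.39 (adjusted p = 0.00674). Of the 3322 genes tested, 18.9% were called higher, and 66% of calls were higher with recomputed size factors, against 53.9% as deposited. Each of these 3 calls was lost without replicate 4 or without replicate 5 (adjusted p from 0.0767 to 0.254). That of bco1 was also lost without weights (adjusted p = 0.0627) and without the minimum on molecules (adjusted p = 0.0537). bco2l differed by -0.45 ± 0.31 (adjusted p = 0.263). Markers of other cell types moved too. Xanthophore markers rose in 9 of 12 tested, iridophore markers in 10 of 10 and leukocyte markers in 7 of 11, while 14 of 16 keratinocyte and 7 of 10 fibroblast and scale markers fell, and their part in the members' rise was not tested.

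In iridophore-enriched over unenriched libraries, bco1 fell by 1.37 (SE 0.49, adjusted p = 0.0178) and bscl2l fell by 1.86 (SE 0.49, adjusted p = 0.00201). In this comparison 26.2% of 5899 genes were called lower. Iridophore-enriched libraries held a median of only 3.8 molecules of bco1 and 6.9 of bscl2l. Within replicate numbers 3, 4 and 5, the mean difference was -0.28, -1.75 and -1.29 for bco1, and -1.41, -1.81 and -1.9 for bscl2l. For bco1, 2, 1 and 0 of 4 hybrids were higher in these numbers, and for bscl2l 1 of 4 in each. Markers fell in 11 of 11 tested for fibroblasts and scales, 10 of 12 for leukocytes, 13 of 17 for keratinocytes, 5 of 5 for erythrocytes and 3 of 3 for adipocytes, while of 14 xanthophore markers 6 rose and 4 fell. Their part in the fall of bco1 and bscl2l was not tested. Leaving out replicate 4 or 5 ended both calls (adjusted p from 0.0532 to 0.326), and that of bco1 was lost without weights too (adjusted p = 0.052). The difference of plin6 was -0.25 ± 0.34 (adjusted p = 0.549) and that of bco2l -0.53 ± 0.25 (adjusted p = 0.0722). Without the minimum on molecules, bco2l differed by -0.52 ± 0.32 in xanthophore-enriched over unenriched libraries (adjusted p = 0.26).

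Set directly against melanophore-enriched libraries, xanthophore-enriched libraries were higher by 1.81 ± 0.43 in bco1 (adjusted p = 0.00954), 1.69 ± 0.35 in plin6 (adjusted p = 0.0022) and 1.67 ± 0.43 in bscl2l (adjusted p = 0.0199). Of 3316 genes, 1.39% were called higher there and 1.78% lower. Of 14 xanthophore markers tested, 2 were called higher and 1 lower. Called lower were 4 of 10 melanophore, 6 of 10 iridophore and 2 of 11 leukocyte markers. Of 17 keratinocyte markers 1 was called higher, and the part of these markers was not tested. None of the members' 3 calls held without replicate 4 or without replicate 5 (adjusted p from 0.111 to 0.276). Those of bco1 and bscl2l were also lost without replicate 3 (adjusted p = 0.0951 and 0.202). The call of bscl2l was further lost without library aesculapii 3, at 1.83 (adjusted p = 0.0903), and without the minimum on molecules (adjusted p = 0.0678). Against iridophore-enriched libraries, xanthophore-enriched libraries were higher by 4.29 ± 0.51 in bco1, 3.11 ± 0.37 in plin6 and 4.89 ± 0.52 in bscl2l (adjusted p of 1.18e-08, 8.65e-09 and 1.8e-09), where 17% of 3365 genes were called higher. There 10 of 15 xanthophore markers were also called higher, and 3 were called lower. Leukocyte markers were higher in 11 of 12 tested, and those of fibroblasts and scales in 9 of 9. Keratinocyte markers were higher in 6 of 16 and adipocyte markers in 3 of 3. Called lower were 12 of 12 iridophore markers and 3 of 3 for glia and neurons. Of 6 melanophore markers, 1 was higher and 2 were lower. The part of all these markers in the members' difference was not tested.

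**Figure D2:**
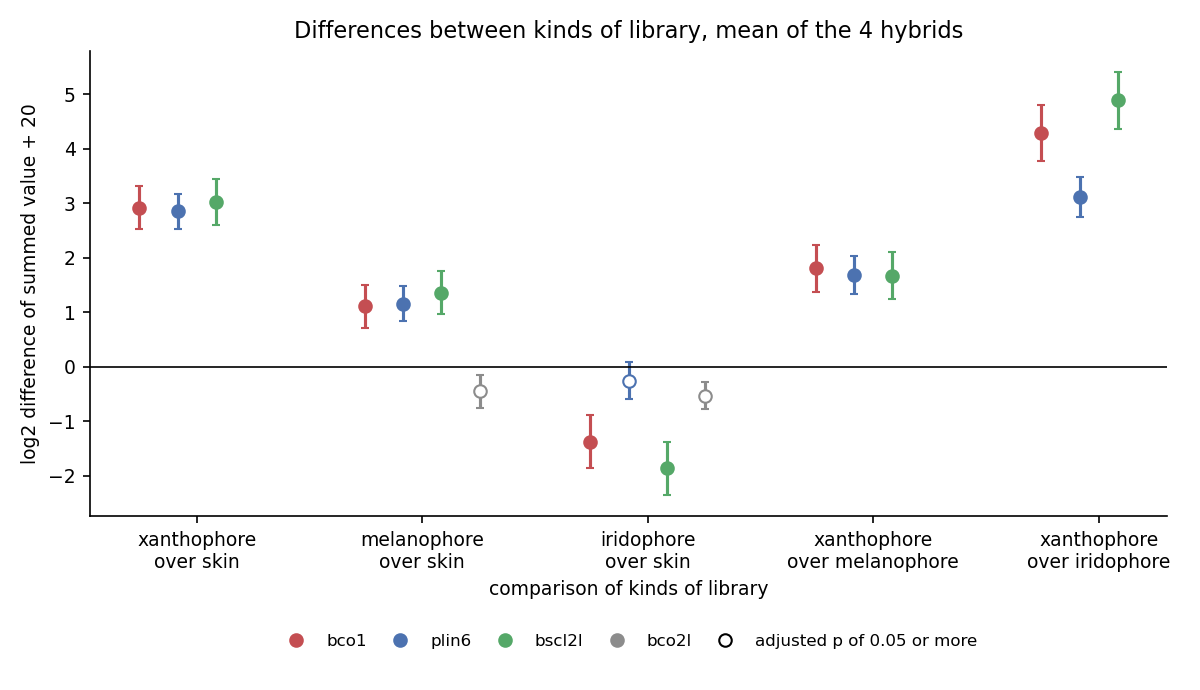
Log2 difference of the summed value plus 20 for each member in 5 comparisons of kinds of library (limma, error bars 1 SE, 3 libraries in each of the 16 groups); open circles did not pass the threshold of 0.05. bco1, plin6 and bscl2l lie near 3 in xanthophore over skin and between 1.11 and 1.36 in melanophore over skin; bco2l was tested only against skin in the other 2 sorts.

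The second question was whether the members' levels in xanthophore-enriched libraries depended on the father. bco1 had 657, 2429 and 10526 in the aesculapii hybrid, 1950, 5159 and 3887 in albolineatus, 2304, 2410 and 4484 in kyathit, and 6460, 2871 and 4702 in nigrofasciatus (replicates 3, 4 and 5). The aesculapii libraries spanned the range of the other hybrids. plin6 had 1702, 4718 and 7080 in aesculapii, 700, 2711 and 2635 in albolineatus, 4566, 5280 and 10362 in kyathit, and 6837, 6846 and 8986 in nigrofasciatus. The albolineatus values all lay below those of kyathit and nigrofasciatus. bscl2l had 1760, 6802 and 5846 in aesculapii, 2501, 6323 and 9236 in albolineatus, 10024, 6849 and 7950 in kyathit, and 25622, 10747 and 12050 in nigrofasciatus. The nigrofasciatus values were the highest, and those of the other hybrids overlapped.

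A moderated F test over the 4 hybrids passed for none of these 3 genes (adjusted p = 0.999 for bco1, 0.889 for plin6 and 0.999 for bscl2l). It called 0 of 3399 genes (0%) with limma, and 192 had an unadjusted p under 0.05. Pairs of hybrids were compared as an addition after results had been seen, and none of the 18 tests of a member passed. Over all genes, the 6 pairs called 0, 0, 0.0294, 0.0883, 0.118 and 0.353%. The difference in plin6 was -1.91 ± 0.61 in albolineatus over kyathit (adjusted p = 0.295) and -2.02 ± 0.57 in albolineatus over nigrofasciatus (adjusted p = 0.204).

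Taken hybrid by hybrid, also an addition, the rise over unenriched skin passed for bco1, plin6 and bscl2l in 3 of 4 hybrids. For bco1 it was 3.46 ± 0.55 in albolineatus, 2.84 ± 0.74 in kyathit and 3.65 ± 0.77 in nigrofasciatus (adjusted p of 5.35e-05, 0.0442 and 0.00431). For plin6 it was 1.76 ± 0.52, 3.76 ± 0.63 and 3.88 ± 0.6 in the same hybrids, and for bscl2l 3.39 ± 0.62, 3.53 ± 0.83 and 3.48 ± 0.68. The adjusted p of these 6 values was 0.0233 or lower. Genes called higher made up 14.2%, 0.844% and 1.48% of those tested in the 3 hybrids. In aesculapii the differences were 1.72 ± 1.02, 2 ± 0.85 and 1.74 ± 1.14 for the 3 genes, and 0 of 3316 genes (0%) were called, with 79 at an unadjusted p under 0.05. The test of whether the rise differed among hybrids passed for no member (adjusted p = 0.993, 0.967 and 0.993) and for no gene (0 of 3316, with 151 at an unadjusted p under 0.05).

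Ordered by mean log2 level over the 16 groups, the 4 xanthophore-enriched groups came first for bco1 and bscl2l, led by nigrofasciatus, and an iridophore-enriched group came last. For plin6 the kyathit melanophore-enriched group (11.14) stood above the albolineatus xanthophore-enriched group (10.76). Neighbouring groups in this order overlapped in their library values in 15 of 15 pairs for bco1, plin6 and bco2l, and in 14 of 15 pairs for bscl2l. For bco2l the order began with the aesculapii iridophore-enriched group, at 824, 1079 and 536, and ended with the albolineatus xanthophore-enriched group, at 115, 128 and 39.

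Across the 16 group means, bco1 and bscl2l were correlated at Pearson r = 0.93, bco1 and plin6 at 0.91, and plin6 and bscl2l at 0.88, while bco2l had r between 0.03 and 0.06 with the others. These groups share hybrids, sorts and depth differences. Among the 8136 genes with a mean sum of 100 or more, the 5 most like bco1 were CABZ01021592.1 (r = 0.969), slc22a7a, si:dkey-73n8.3, si:dkey-251i10.2 and bscl2l (r = 0.933). Those most like bscl2l were si:dkey-73n8.3 (r = 0.968), CABZ01021592.1, the pteridine synthesis gene gch2, slc2a11b and si:dkey-251i10.2 (r = 0.948). For plin6 they were zgc:153031 (r = 0.921), bco1, the kinase gene sgk3, gch1, which encodes GTP cyclohydrolase, and si:dkey-73n8.3 (r = 0.892). For bco2l they were kctd3 (r = 0.853), spred1, p3h4, myl9b and fam168b (r = 0.778).

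In xanthophore-enriched over unenriched libraries, other carotenoid and retinoid genes moved in both directions, and none of the 6 other lipid droplet genes tested passed. Of 35 carotenoid and retinoid genes listed, 30 were in the files and 8 had enough molecules for that comparison. Of these 8, 2 rose and 1 fell, with a median difference of -0.07, against -0.05 over all genes tested. Over all genes 8.47% were called higher and 5.43% lower, and the list was not tested against these shares. The counts were the same without library aesculapii 3, and without the unenriched libraries kyathit 5 and nigrofasciatus 3. The carotenoid oxygenase gene bco2b rose by 2.31 ± 0.37 (adjusted p = 3.76e-05). Its level was 3058.9 ± 2456.8 in xanthophore-enriched libraries and 597.2 ± 397.9 in unenriched skin (mean ± SD, n = 12 each). The lipoprotein receptor gene scarb1, also counted among the xanthophore markers, serves carotenoid uptake in xanthophores of zebrafish. It rose by 1.91 ± 0.31 (adjusted p = 4.24e-05), with 1515.4 ± 1036.4 in xanthophore-enriched libraries and 368.8 ± 229.7 in unenriched skin. The gene cyp26b1, whose enzyme breaks down retinoic acid, fell by 1.82 (SE 0.35, adjusted p = 0.000327). Its level was 707.2 ± 1126.2 in xanthophore-enriched libraries and 1453.7 ± 776.8 in unenriched skin.

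In melanophore-enriched over unenriched libraries, 2 of 8 genes of this list rose and 2 fell, where 18.9% of all genes tested were called higher and 16.2% lower. There scarb1 rose by 1.05 ± 0.28 (adjusted p = 0.004), and cyp26b1 fell by 1.87 (SE 0.28, adjusted p = 2.19e-06). bco2b differed there by 0.9 ± 0.38 (adjusted p = 0.0603). In iridophore-enriched over unenriched libraries, 5 of 13 rose and 5 fell, where 25.1% of all genes were called higher and 26.2% lower.

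Of 49 lipid droplet genes, 38 were in the files and 6 were tested in xanthophore-enriched over unenriched libraries, with 0 called by limma and a median of 0.06. Over all genes tested, 13.9% were called in either direction, and the count of 0 of 6 was not tested against that share. The furthest from 0 were g0s2, an inhibitor of triglyceride lipase, at 0.9 ± 0.45 (adjusted p = 0.175), and the fatty acid activating enzyme gene acsl4a at -0.84 ± 0.32 (adjusted p = 0.0698). The minimum on molecules left plin2 and bscl2 untested. In iridophore-enriched over unenriched libraries, 3 of 13 lipid droplet genes rose and 2 fell, where 25.1% of all genes were called higher and 26.2% lower. The monoglyceride lipase gene mgll rose there by 2.4 ± 0.26 (adjusted p = 8.51e-11), and lpl, which encodes lipoprotein lipase and is also counted among the adipocyte markers, fell by 4.2 (SE 0.45, adjusted p = 1.71e-10). In xanthophore-enriched over iridophore-enriched libraries, 1 of 7 rose, lpl at 4.14 ± 0.51, and 2 fell, where 17% of genes were called higher and 17.3% lower. plin1, the perilipin of fat cells, was listed at 0 in 12 of 12 xanthophore-enriched and 10 of 12 unenriched libraries. Of 4 adipocyte markers tested, 0 were called, and 9 adipocyte markers in the files made up 0.115 to 1.68% of the value in xanthophore-enriched libraries, against 0.181 to 0.544% in unenriched skin.

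**Figure D3:**
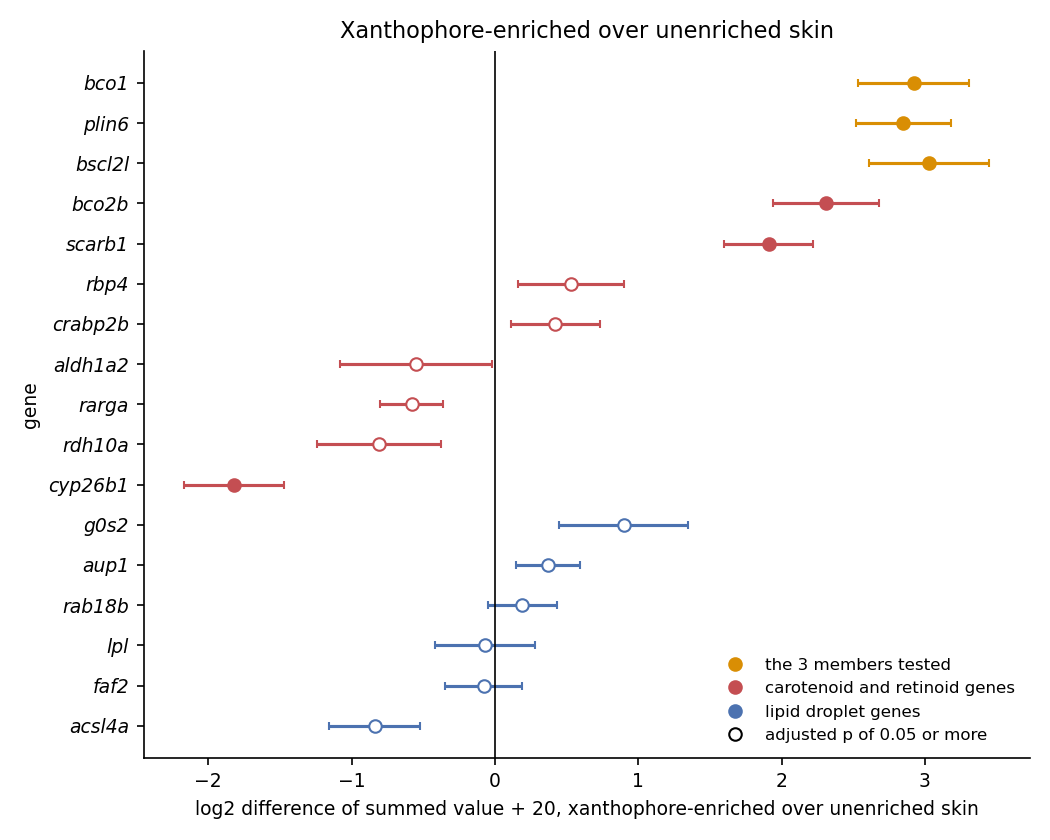
Log2 difference of the summed value plus 20 in xanthophore-enriched over unenriched libraries (limma, error bars 1 SE, 12 libraries of each kind) for the 3 members tested, 8 carotenoid and retinoid genes and 6 lipid droplet genes; open circles did not pass the threshold of 0.05. The members lie near 3, bco2b and scarb1 at 2.31 and 1.91, and the lipid droplet genes between -0.84 and 0.9.

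The third question was which parental allele supplied each member. It was measured as log2 of paternal over D. rerio after adding 0.5 molecule to either allele. The median over genes was then subtracted in each library (-0.053 to 0.808, the highest in xanthophore-enriched aesculapii 5), so a ratio is relative to the typical gene. The members were testable in 52 pairs of gene and group, and 10 were called (19.2%), 9 towards the paternal and 1 towards the D. rerio allele. Over all genes 19.9% of 71969 pairs were called, 6371 towards the paternal and 7930 towards the D. rerio allele. The members' share was thus near the background, and their split by direction was not tested.

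For bco1, after centring, the kyathit allele was higher and the nigrofasciatus allele lower than the D. rerio allele in xanthophore-enriched libraries. In the kyathit hybrid, the paternal allele gave 72.8, 73.2 and 76.1% of bco1 in xanthophore-enriched replicates 3, 4 and 5, from 27 to 105.3 molecules. The centred ratio was 1.51 ± 0.23 (adjusted p = 0.000292), where 13% of 3723 genes were called. In the nigrofasciatus hybrid, the paternal share was 50.2, 39.3 and 30.1%, and the ratio -0.92 ± 0.24 (adjusted p = 0.0205), where 20.4% of 2434 genes were called. The call in nigrofasciatus was lost without replicate 4 or 5 and without centring (adjusted p from 0.0661 to 0.323). Paternal shares in the aesculapii hybrid were 73.2, 55.5 and 45.9%, with a ratio of 0.02 ± 0.62 (adjusted p = 0.992), where the 3 libraries did not lean one way. They were 58.6, 44.4 and 50.5% in the albolineatus hybrid, with -0.09 ± 0.33 (adjusted p = 0.903).

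The ratio of bco1 differed among the 4 hybrids in xanthophore-enriched libraries (F = 7, adjusted p = 0.0309), where 10.5% of 1342 genes did. The call was lost without centring (adjusted p = 0.0617), without replicate 4 (adjusted p = 0.2) and without replicate 5 (adjusted p = 0.158). The difference was 2.42 ± 0.37 in kyathit over nigrofasciatus (adjusted p = 0.000213, 16.9% of genes called) and -1.6 ± 0.39 in albolineatus over kyathit (adjusted p = 0.015, 8.94% called), and the other 4 pairs did not pass. These 6 comparisons of pairs were an addition after results had been seen, with p-values adjusted over genes and not over pairs.

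Most libraries of the other kinds leaned the same way for bco1. In the kyathit hybrid, 3 of 3 melanophore-enriched, 2 of 3 iridophore-enriched and 3 of 3 unenriched libraries had more of the paternal allele after centring. In the nigrofasciatus hybrid, 2 libraries of each of these kinds had 3 or more molecules. All of them had more of the D. rerio allele. In unenriched skin the ratio was 0.98 ± 0.35 in kyathit (adjusted p = 0.0744) and -0.53 ± 0.32 in nigrofasciatus (adjusted p = 0.268). Without the unenriched libraries kyathit 5 and nigrofasciatus 3, the kyathit ratio passed at 1.03 (adjusted p = 0.017), in an alternative chosen after seeing the data. It differed among hybrids there too (adjusted p = 0.0345, against 32.2% of 6711 genes), but not without replicate 3 (adjusted p = 0.179) or without weights (adjusted p = 0.145). Differences among the 4 kinds of library within a hybrid could be tested in 8 of 16 pairs of member and hybrid: all 4 members in kyathit, plin6 and bscl2l in nigrofasciatus, and plin6 alone in aesculapii and albolineatus. Of these 8 tests limma called 0, where it called few genes overall (0.306, 0.147, 0.697 and 0.329% in aesculapii, albolineatus, kyathit and nigrofasciatus). Among the 8, bco1 and plin6 in kyathit had an unadjusted p under 0.05 (0.0424 and 0.0365, adjusted 0.544 and 0.513).

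For plin6 the paternal allele was higher in 3 of 4 kinds of kyathit library. In xanthophore-enriched libraries it gave 50.6, 58.7 and 73.8% (0.91 ± 0.23, adjusted p = 0.0167). Without replicate 5 the ratio was 0.29 (adjusted p = 0.617), and the call was also lost without replicate 4 (adjusted p = 0.0541) and without weights (adjusted p = 0.162). In melanophore-enriched libraries the share was 71, 86.1 and 65.5% (1.53 ± 0.34, adjusted p = 0.0056, and 0.0921 without replicate 4), where 17.3% of genes were called. In iridophore-enriched libraries it was 80.4, 74.5 and 78.1% (1.78 ± 0.29, adjusted p = 0.000155), where 25.8% of genes were called, and this call held in 13 of 13 alternatives. Unenriched kyathit skin had 66, 57.6 and 49.6% (0.65 ± 0.42, adjusted p = 0.347).

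Paternal shares of plin6 in xanthophore-enriched libraries were 37, 50.2 and 26.4% in aesculapii, 28.7, 31.2 and 49.9% in albolineatus, and 59, 50.5 and 50.5% in nigrofasciatus, and none of these ratios passed. The test among hybrids did not pass in xanthophore-enriched libraries (adjusted p = 0.148), though the ratio was -1.72 ± 0.49 in albolineatus over kyathit (adjusted p = 0.0375). It passed in melanophore-enriched libraries (adjusted p = 0.0187, where 18% of 1907 genes did), but not without replicate 3 (adjusted p = 0.055). In iridophore-enriched libraries its adjusted p was 0.0548, where 28.7% of genes were called. It passed there in 6 of 10 alternatives, among them no centring (adjusted p = 0.0481), no weights (adjusted p = 0.0444) and without replicate 3 (adjusted p = 0.0377).

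For bscl2l the nigrofasciatus allele was higher than the D. rerio allele in 3 of 4 kinds of library. In xanthophore-enriched libraries it gave 70.4, 61.8 and 65.9%, from 125.2 to 188.2 molecules (0.71 ± 0.21, adjusted p = 0.0308). In melanophore-enriched libraries it gave 53.6, 67.1 and 81.3% (1.32 ± 0.31, adjusted p = 0.00969), and in unenriched skin 66.8, 71.7 and 62.4% (0.94 ± 0.25, adjusted p = 0.0132). Over all genes, 20.4, 18.1 and 23.6% were called in these 3 groups. The 9 libraries all leaned to the paternal allele after centring. The xanthophore-enriched call was lost without replicate 3, 4 or 5 (adjusted p = 0.0807, 0.0525 and 0.107). That in melanophore-enriched libraries was lost without replicate 5 (adjusted p = 0.353). That in unenriched skin was lost without replicate 4 or 5 (adjusted p = 0.167 and 0.0828). All 3 were lost without weights (adjusted p from 0.106 to 0.168). In the kyathit hybrid the melanophore-enriched share was 67.1, 53.5 and 75.4% (1.08 ± 0.24, adjusted p = 0.00523), and the call was lost without replicate 3 (adjusted p = 0.141), replicate 5 (adjusted p = 0.217) or weights (adjusted p = 0.051).

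Paternal shares of bscl2l in xanthophore-enriched libraries were 45.9, 46.6 and 50.7% in aesculapii, 34.9, 56.3 and 39.8% in albolineatus, and 55.8, 52 and 57.2% in kyathit, with no call. The test among hybrids did not pass there (adjusted p = 0.233), though the ratio was -1.19 ± 0.31 in albolineatus over nigrofasciatus (adjusted p = 0.0201, 11.5% called). It passed in unenriched skin (adjusted p = 0.00877), where 32.2% of 6711 genes did. That call was lost without replicate 4 (adjusted p = 0.117), replicate 5 (adjusted p = 0.0863) or weights (adjusted p = 0.0861).

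For bco2l, allele ratios in sorted libraries rest mostly on few molecules, while unenriched libraries held 5.7 to 50.6. In aesculapii iridophore-enriched libraries the paternal allele gave 74.9, 86.5 and 95.5%, from 5.2, 32.1 and 7.4 molecules (2.49 ± 0.41, adjusted p = 0.000283), where 16.8% of 3073 genes were called. The call held in 12 of 12 alternatives, and it was the only 1 among the 9 groups tested for bco2l. In unenriched aesculapii skin the share was 57.4, 60.9 and 54.4%, with 0.41 ± 0.29 (adjusted p = 0.372). In nigrofasciatus xanthophore-enriched libraries the paternal share was 1.3, 21.7 and 0.9%, but from 4.2, 3.6 and 5.2 molecules, too few to be tested. Tables used here also hold rows for bco1l, bco2a, bco2b and bscl2. How reads shared between related genes were counted is not given in the sources used here.

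Among the listed genes of both pathways, allele calls in xanthophore-enriched libraries were few, as were the genes tested. scarb1 had more of the D. rerio allele in nigrofasciatus (-1.45 ± 0.29, adjusted p = 0.00434), the only call among 5 carotenoid and retinoid genes tested there. lpl had more of the paternal allele in aesculapii (2.55 ± 0.54, adjusted p = 0.00994, where 4.64% of genes were called), 1 of 2 lipid droplet genes tested there. No gene of either list was called in the albolineatus or kyathit hybrid, with 8 and 7 carotenoid and retinoid genes and 3 and 7 lipid droplet genes tested. Over all genes, 10.4% were called in albolineatus, 13% in kyathit and 20.4% in nigrofasciatus. The counts of listed genes were not tested against these shares.

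**Figure D4:**
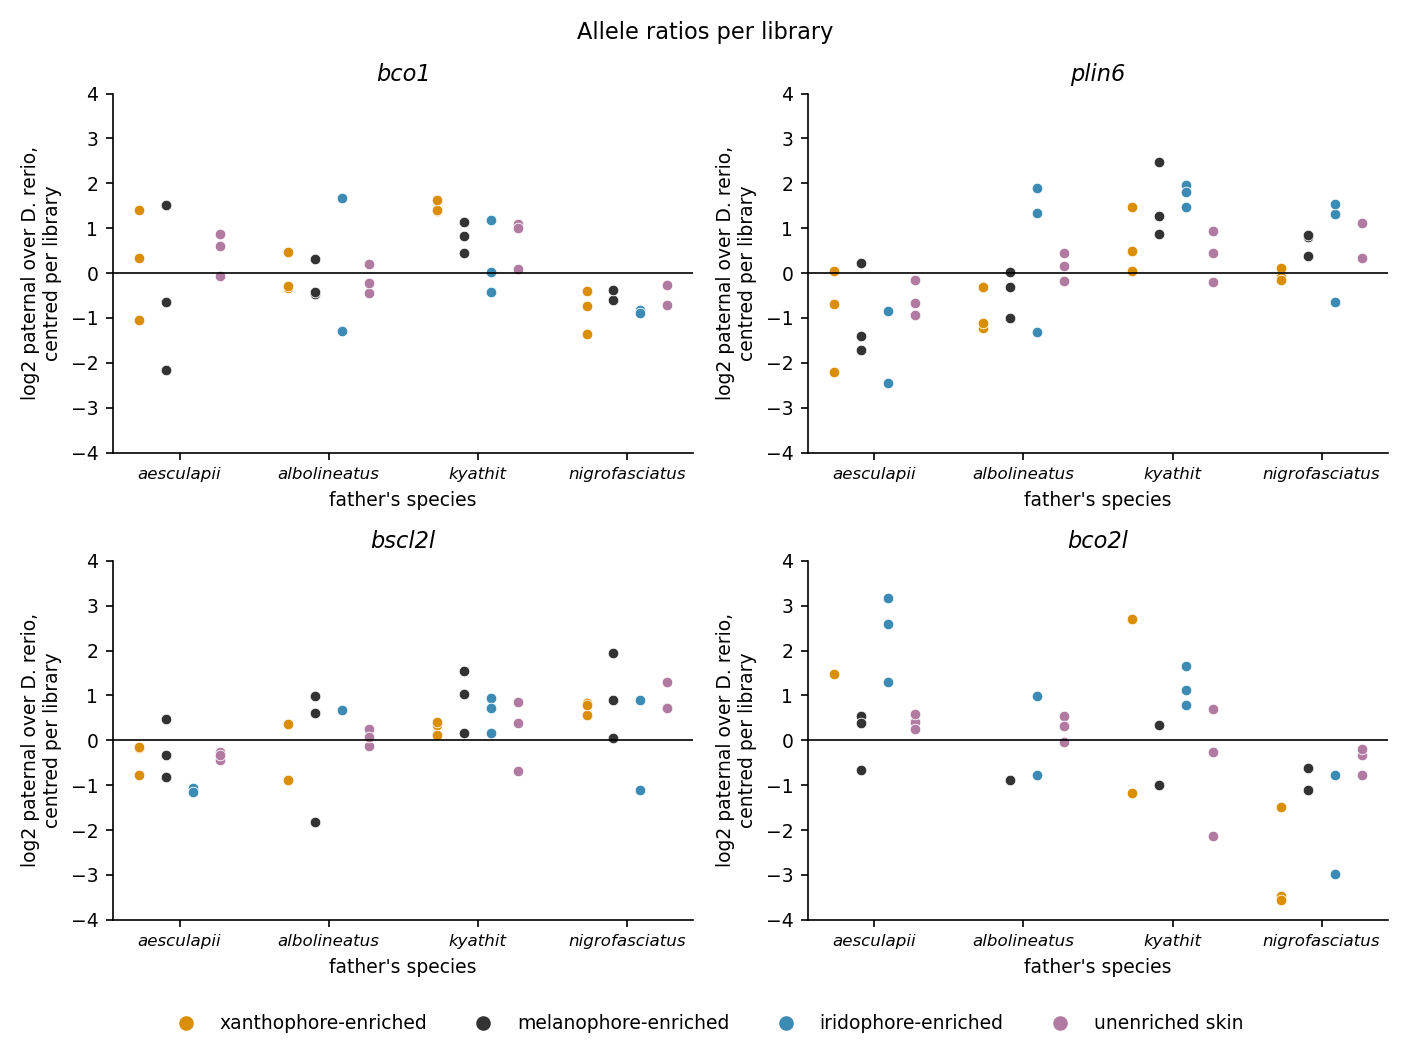
Log2 ratio of the paternal over the D. rerio allele, centred per library, for each member in each library with 3 or more molecules, by the father's species; colours give the kind of library. Xanthophore-enriched bco1 lies between 1.372 and 1.635 in kyathit and below 0 in nigrofasciatus, and bco2l points spread widely.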

How the data were processed

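Per the labels, polyA RNA was amplified with a SMART-seq2 kit and sequenced from paired-end Nextera libraries. The deposited values are treated as a score. No label records how they were scaled, but they look like allele counts divided by size factors and rounded: they are whole numbers, 33 of 96 columns (1 per library and allele) run in steps, and a median-ratio estimate gave factors of 0.997 to 1.0029 (3132 genes). Size factors recomputed over the 48 sums of both alleles, an alternative, lay between 0.835 and 1.12. The submitters' processing notes name GRCz11, featureCounts and DESeq2 1.44.0 without their roles. How reads were aligned and assigned to alleles is not given there. No sequence is printed, as no reference was used here.

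The members and lists were chosen with earlier results of these data known. Genes named besides the members are the listed genes past the threshold with the largest changes (up to 5) and the 5 most correlated with each member. cyp26b1, scarb1 and bco2b are also given in melanophore-enriched libraries, and g0s2, acsl4a, plin1, mgll, the levels of lpl and the sort markers were chosen after their values were seen.

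A molecule is the value at which binomial counting gives the squared differences of allele share between replicates, over genes with sums of 300 to 3000. limma 3.58.1 in R 4.3.3 was fitted to log2(sum + 20) over 16 group means, and to centred allele ratios over the 12 libraries of a hybrid or kind. Observations were weighted by a lowess curve of their library's residual scatter on level (span 0.3, floor 0.25), with trended, robust variances. Benjamini-Hochberg adjustment of the two-sided p-values ran over all genes tested in a comparison (threshold 0.05). Ratios needed 5 molecules in 2 of 3 libraries, and F tests needed 10 molecules of each allele with 5% from the rarer one.

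The allele weighting went through 4 versions on the real data, each with the members' results seen, and the changes moved some of their calls. Version 1 had a fault in genes with missing groups. Version 2 ran the weights against the fitted ratio instead of the level, and version 3 let values alone in their group lower the curve. Version 4 was kept for its behaviour on simulated data. For the test among hybrids in xanthophore-enriched libraries (1487 genes), false calls were 0%, against 0.466% in version 3 and 0.233% in version 2. Of genes changed by 2 on the log2 scale, 58% were found, against 61% and 32%. Of genes changed by 1, only 18% were found, against 18% and 8%. For the kyathit ratio in xanthophore-enriched libraries, version 4 found 37% of genes changed by 1 and 89% of those changed by 2. Versions 2 and 3 are given as alternatives.

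The labels call the replicate number a batch, so the numbers pair the libraries. Deviations from group means correlated at a median of 0.036 between libraries of the same number and -0.023 between others.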

Additional observations from a re-analysis of the deposited data

Results flagged for a closer look

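The allele ratio differed among the 4 hybrids, by a test of the difference itself, in 4 cases. For bco1 the adjusted p was 0.0309 in xanthophore-enriched libraries and 0.0345 in unenriched skin. For plin6 it was 0.0187 in melanophore-enriched libraries. For bscl2l it was 0.00877 in unenriched skin. Over all genes tested, 10.5% differed among hybrids in xanthophore-enriched libraries, 18% in melanophore-enriched libraries and 32.2% in unenriched skin. The 4 cases were not tested against these shares. Each of these 4 calls was lost when some replicate number was left out.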

How the results depend on the processing

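The rises of bco1, plin6 and bscl2l in xanthophore-enriched over unenriched libraries kept direction and call in 12 of 12 alternatives (2.65 to 3.28, 2.54 to 3.27 and 2.88 to 3.19). The earlier weights, counted among the 12, gave the same values as the main fit. With the replicate block, bco1 rose by 2.91, and the block changed no member's call and moved no count by over 1.5 times. Of 1144 member values under alternatives, 1062 were counted as the same, 55 lost a call and 17 gained one. A further 10 uncalled allele ratios were counted as changed in sign, and 0 called values reversed. Other values that stayed uncalled counted as the same, some of them with a changed sign. For bco1 in aesculapii xanthophore-enriched libraries, the ratio was 0.02 in the main fit and reached -0.55 under an alternative. The 1062 thus do not measure how stable directions or calls were. Leaving out a replicate number gave 37 of those 55 losses. Those alternatives also had fewer libraries, and the cause of the losses was not tested.

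Among hybrids in xanthophore-enriched libraries, bco1 had adjusted p-values of 0.0346 to 0.2 with a replicate number left out, 0.0137 without library aesculapii 3 and 0.0617 without centring. With version 2 of the weights, plin6 and bscl2l passed in that test (adjusted p = 0.0369 and 0.0366), and neither passed under any other alternative. Version 2 also ended the 3 nigrofasciatus calls of bscl2l (adjusted p from 0.0696 to 0.113) and the kyathit xanthophore-enriched call of plin6 (adjusted p = 0.0747). It called bco1 in aesculapii xanthophore-enriched libraries (1.13, adjusted p = 0.0331).

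Counts over all genes depended more on the choices. Without the filter on molecules, more genes were tested, and calls were 3783 in xanthophore, 4045 in melanophore and 7629 in iridophore over skin, 2853 in xanthophore over iridophore, 94 for sums among hybrids and 99 for the difference in rise. The main counts were 461, 1166, 3025, 1154, 0 and 0. Without weights, 335 genes differed between xanthophore- and melanophore-enriched libraries (105 with weights), 228 in sums among hybrids, and 20 in allele ratio among kinds (31 with weights, 54 and 86 with versions 3 and 2). Without library aesculapii 3, calls were 304 in xanthophore over skin, 1152 in melanophore over skin, 46 in xanthophore over melanophore, and 14143 by group, 32 among kinds and 3362 among hybrids for the allele ratio. With a replicate number left out, they were 46 to 277 in xanthophore over skin, 504 to 907 in melanophore over skin, 5 to 47 in xanthophore over melanophore and 589 to 895 in xanthophore over iridophore. Allele calls were then 6708 to 8484 by group (14301 in all libraries), 6 to 10 among kinds and 937 to 1525 among hybrids (3411 in all libraries). Leaving out library aesculapii 3, the earlier weights and, for allele ratios, leaving out the unenriched libraries kyathit 5 and nigrofasciatus 3 were added after seeing the data. The comparisons within 1 hybrid and between pairs of hybrids were not rerun under alternatives. The mean of bco2l was 270.5 in xanthophore-enriched and 359.9 in unenriched libraries. At the xanthophore-enriched median of 67.2 per molecule, the mean over the libraries of both kinds was below the minimum of 5 molecules. The level of bco2l was therefore not tested in that comparison.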
